A study of Mus musculus with 6 samples.

Results

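The distal end of mouse chromosome 3 held 81 genes that were read often enough to be compared between the genotypes, and most of them were lower in Ts1Cje cells than in wild-type cells. The interval runs from 141457976 to 159938664 on chromosome 3 of the mm10 genome (18.5 Mb), with no gene of the count table past its end. Members are the rows of the count table that start in this interval and have 10 or more counts in at least 3 of the 6 libraries. The interval holds 274 rows, of which 193 missed the count rule and 122 of those had no count in any library, and 17379 genes of the whole table pass the same rule. The interval was drawn from the fold changes between the 2 genotypes measured here, so their values below are a description and support no test of the interval.

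Ts1Cje mice model Down syndrome and carry 3 copies of a distal segment of chromosome 16. That segment holds no part of chromosome 3. RNA was taken from 3 samples of cells made from embryonic stem cells (ESCs) of Ts1Cje mice and from 3 samples of cells made from ESCs of wild-type mice. All 6 samples were exposed for 4 days to FGF2, BMP-4, activin A and VEGF, a treatment meant to give primitive macrophage progenitors. The samples of each genotype are numbered lots. Whether lots are separate ESC lines or cultures is not stated, so the p-values behind every call rest on variation among these lots, possibly only technical, and genotype and cell line of origin cannot be told apart.

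Genes that sit beside each other in a mammalian genome usually differ in function, and a chromosome arm is not a pathway. Neighbours can still share DNA: genes that start back to back can use a common promoter region, and antisense or intronic transcripts lie within larger genes. The distal end of mouse chromosome 3 holds genes as unlike as splicing factors, guanylate-binding proteins, a PKA subunit and enzymes of fatty acid and cysteine metabolism. No DNA was measured here, and RNA levels alone do not give the number of copies of the interval in either set of cells, which was not tested.

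The libraries held 16577065 to 19010856 counts. Of 17315 genes tested with edgeR's quasi-likelihood test, 43.8% were called at an adjusted p below 0.05, with 20.5% lower and 23.3% higher in Ts1Cje cells. The cells of the genotypes also differed in the lineages they resembled. Summed TPM of 12 pluripotent and primed epiblast markers was 1520 to 2073 in Ts1Cje libraries, against 221 to 476 in wild-type libraries. For 14 endoderm markers it was 1605 to 1846 in Ts1Cje libraries and 332 to 430 in wild-type libraries, and for 14 mesoderm and vessel markers 288 to 556 in Ts1Cje libraries and 2627 to 2826 in wild-type libraries. Fibroblast feeder markers summed to 373 to 586 in Ts1Cje libraries and 1311 to 1591 in wild-type libraries, with S100a4 at 0 throughout and 5 of the 12 genes (Col3a1, Dcn, Lum, Postn and S100a4) under 1 TPM in every library. Macrophage markers were near the floor, at 30.3 to 37.8 in Ts1Cje libraries and 18.7 to 29.9 in wild-type libraries over 12 genes, with Ptprc, Cx3cr1 and Fcgr1 at 0 in every library and 9 of the 12 under 1 TPM in every library. Of the 3 that could be tested, Cd68 was called higher in Ts1Cje cells, at 0.80 ± 0.28, and Csf1r and Mrc1 were not called. The bulk of the sum was Cd68, at 17.1 to 25.5 TPM in Ts1Cje libraries and 9.70 to 19.1 TPM in wild-type libraries, and Csf1r, at 9.05 to 11.3 TPM in Ts1Cje libraries and 7.30 to 9.11 TPM in wild-type libraries. In bulk RNA, fewer cells of a type and less RNA per cell cannot be told apart, and the part these lineage differences play in the distal chromosome 3 values was not tested.

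Of the 81 members, 80 could be tested, and 49 of them (61.3%) were called lower, 7 were called higher and 24 were not called. The same test called 20.5% of all genes lower, but the members were picked from this contrast, so nothing is read from that difference. The median log2 fold change of Ts1Cje over wild-type was -0.66, a level of 0.634 of wild-type, with quartiles of -0.88 and -0.34, and 68 of the 80 lay below 0. Over all tested genes the median was -0.01. The 781 other tested genes of chromosome 3 also had a median of -0.01, with 162 called lower and 181 higher. The member left untested, the small nucleolar RNA Gm25965, had 1, 3 and 4 counts in Ts1Cje libraries and 13, 10 and 10 in wild-type libraries. It lies in an intron of Pkn2 on the opposite strand.

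No band of fold change held more members than that from -1 to -0.5, though most members lay outside it. Among the 80 tested members, 32 (40.0%) had a log2 fold change between -1 and -0.5, where 8.71% of all tested genes lay. A further 21 lay between -0.5 and 0, 7 between -2 and -1, and 8 under -2. On the other side 5 lay between 0 and 0.5, none between 0.5 and 1, and 7 above 1. Of these 12, 10 averaged under 10 TPM, and Clca4a, at 1.08, lay between 0.78 and 0.95 when 1 of 3 libraries was left out (Ts1Cje replicate 1, wild-type replicate 2 or wild-type replicate 3). For 56 members all Ts1Cje libraries were below all wild-type libraries (26.4% of all tested genes), and for 8 they were above (28.8% of all tested genes). The groups overlapped for the other 16.

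Abundant members were more alike than scarce ones. TPM scales counts to gene length and library size, so levels of different genes can be set side by side. Of the 43 members with a mean of at least 10 TPM, 35 were called lower, 1 was called higher and 41 were below 0. Short rows reach a high TPM on few counts, and the 43 include the small RNA rows Mir6381, Mir186 and Gm24494. Mir6381, 87 bases long, had 1, 0 and 1 counts in Ts1Cje libraries. It reached 10 counts in wild-type libraries only and had to differ. Lower and upper quartile of these log2 fold changes lay 0.43 apart, against 0.53 for 10434 other genes as abundant, and 26 of the 43 (60.5%) lay within 0.25 of their own median, against 48.5% of the other genes around theirs. For the 37 members under 10 TPM the quartiles lay 1.10 apart, with 14 called lower and 6 higher. Abundant genes were also the more alike outside the interval. There the quartiles lay 0.73 apart over all 17235 other tested genes, against the 0.53 of the abundant ones. Protein-coding members (57) and the other members (23) had medians of -0.66 and -0.67, and members on the plus and the minus strand had medians of -0.66 and -0.65.

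**Figure D1:**
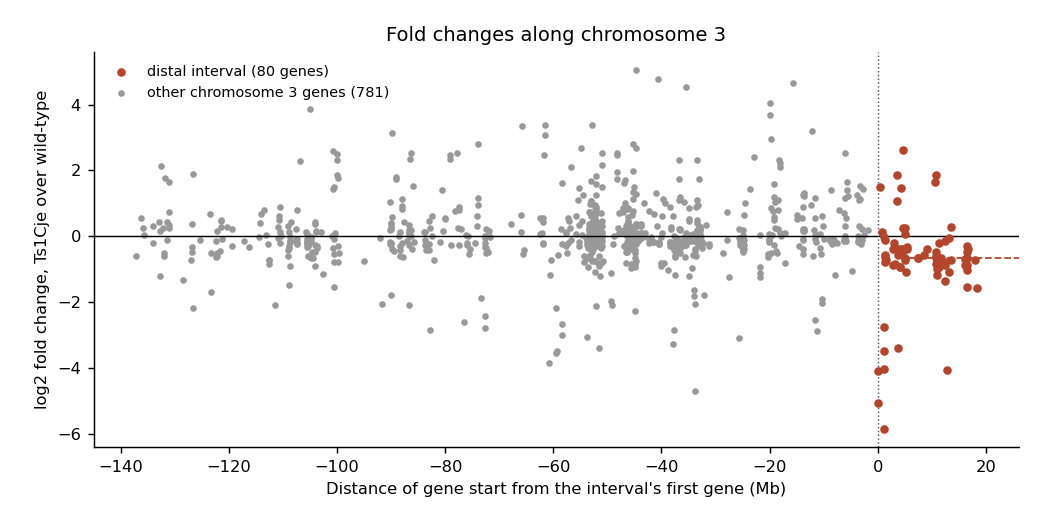
Log2 fold change of each tested chromosome 3 gene (vertical axis, Ts1Cje over wild-type) against the distance of its start from the interval's first gene in Mb. The 80 tested distal genes are in red, with their median of -0.66 as a dashed line, and the 781 other genes, in grey, scatter around 0.

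The shift was present in every Ts1Cje library and of similar size in each. Each library's value for a gene was taken as its log2 CPM, its counts scaled to library size, less the mean of the wild-type libraries. The median over the 80 members was -0.52, -0.66 and -0.66 in Ts1Cje replicates 1, 2 and 3, against 0.01, 0.02 and -0.01 in wild-type replicates 1, 2 and 3. The mean of the library medians was -0.62 ± 0.08 in Ts1Cje libraries and 0.00 ± 0.01 in wild-type libraries (SD, n = 3 each). In the same order, 65, 67 and 68 of the 80 members were below 0 in the Ts1Cje libraries, and 39, 31 and 42 in the wild-type libraries. Replicate 1 thus had the smallest shift of the Ts1Cje libraries, and the wild-type libraries lay close to 0, around which they are centred by construction.

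The Ts1Cje libraries were low in the same members. Of the 80 members, 61 were below 0 in all 3 Ts1Cje libraries, 10 were above 0 in all 3 and 9 were mixed, while 37.0% of the other tested genes were below 0 in all 3. Among the 43 abundant members, 39 were below 0 in all 3 Ts1Cje libraries, and for 25 of them all 3 values lay between -1 and -0.25. The abundant members' medians were -0.54, -0.65 and -0.76 in Ts1Cje replicates 1, 2 and 3, against -0.03, 0.01 and 0.02 in wild-type replicates 1, 2 and 3. Taken as 9 pairs of one Ts1Cje and one wild-type library, which share libraries with each other, the medians over 80 members ran from -0.71 to -0.49. Every pair had 65 to 67 members lower in the Ts1Cje library, and the medians of the genes outside the interval stayed between -0.00 and 0.02. Together the 81 members took 0.248%, 0.233% and 0.236% of all counts in Ts1Cje replicates 1, 2 and 3, against 0.394%, 0.406% and 0.403% in wild-type replicates 1, 2 and 3.

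**Figure D2:**
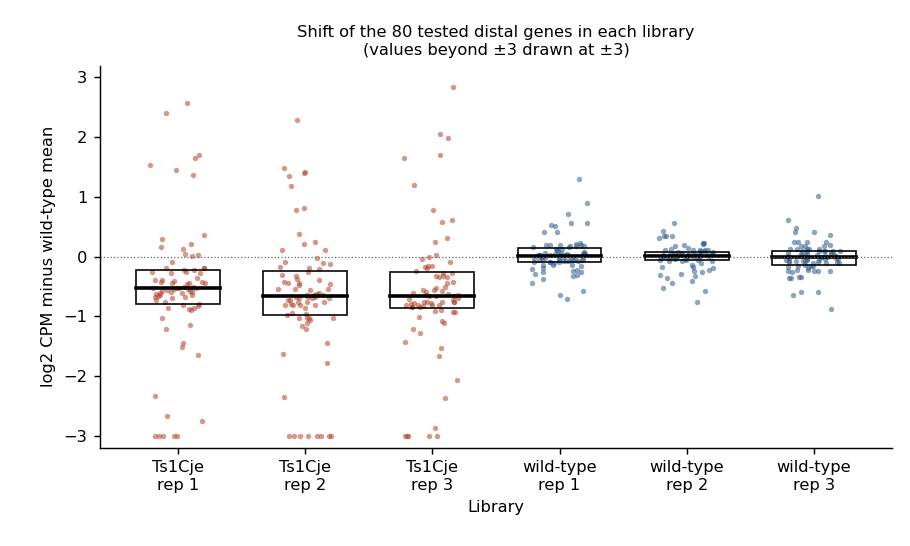
Shift of each of the 80 tested distal genes in each library, as log2 CPM less the wild-type mean of that gene (vertical axis), with a box from the lower to the upper quartile and a line at the median. The medians are -0.52, -0.66 and -0.66 in the Ts1Cje libraries and 0.01, 0.02 and -0.01 in the wild-type libraries.

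Values were not uniform at the start of the interval, and its first border was drawn from these same fold changes. The last tested genes before it, Tspan5, Rap1gds1 and Gm2451, had log2 fold changes of 1.42 ± 0.07, 0.04 ± 0.10 and 0.20 ± 0.42 (SE), and 1.81 Mb without a tested gene followed. The 41 tested genes in the 10 Mb before the interval had a median of 0.00. The first genes inside it were Gm15688 at -4.08 ± 0.67, Unc5c at -5.08 ± 0.44 and Bmpr1b at 1.48 ± 0.42. The split at Gtf2b used next was likewise made with these fold changes known, so the values on each side of it are a description. The 10 tested members before Gtf2b had a median of -3.12 and ran from -5.86 to 1.48. Without Gm15688 and Mir6381, which reached 10 counts in wild-type libraries only and overlap Unc5c and Gbp2, the other 8 had a median of -1.43. From Gtf2b on, the 70 tested members had a median of -0.65, and of the 39 among them with at least 10 TPM, 38 were below 0, 32 were called lower and 23 lay between -1 and -0.5. In bins of 2 Mb counted from the interval's start, the medians were -0.75, -0.39 and -0.39 over 14, 9 and 18 genes, then -0.66 over 15 genes at 10 to 12 Mb, -0.77 over 9 genes at 12 to 14 Mb and -0.69 over 9 genes at 16 to 18 Mb. The other bins held 2 genes or none. The last genes were B230334C09Rik at -0.39 ± 0.36, Depdc1a at -0.73 ± 0.10 and Wls at -1.59 ± 0.09.

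The count rule also has an edge. Just outside it, with 10 or more counts in only 2 libraries, were 6 rows. Among them Ptgfr, a prostaglandin F receptor, had 2, 1 and 1 counts in Ts1Cje libraries and 0, 17 and 13 in wild-type libraries, while Ptger3, a prostaglandin E receptor, had 8, 15 and 13 counts in Ts1Cje libraries and 9, 3 and 5 in wild-type libraries. Just inside it, 4 members reached 10 counts in wild-type libraries only (Gm15688, Mir6381, Gm25965 and Lhx8) and D630002J18Rik did so in Ts1Cje libraries only. These members passed through the group in which they are high and had to differ. The 63 members with 10 or more counts in all 6 libraries had a median of -0.62, with 42 called lower and 4 higher.

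Genes that act on DNA and RNA were called lower throughout. All 11 tested members of this list were called lower, with a median of -0.73 and quartiles 0.18 apart, and Lhx8, at -4.07, lay far below the other 10. Lhx8 reached 10 counts in wild-type libraries only and had to differ. Counts for this list and the later ones stand beside 20.5% lower and 23.3% higher over all tested genes. The members were picked from this contrast, so nothing is read from the difference. Srsf11, an SR-family splicing protein, had 103, 94.7 and 86.9 TPM in Ts1Cje replicates 1, 2 and 3, against 155, 150 and 141 TPM in wild-type replicates 1, 2 and 3. Fubp1, a single-stranded DNA-binding protein known as an activator of Myc, had 61.9, 58.6 and 65.6 TPM in Ts1Cje libraries and 103, 111 and 118 TPM in wild-type libraries. In both genes every Ts1Cje library lay below every wild-type library, with log2 fold changes of -0.66 ± 0.07 and -0.84 ± 0.08. Zranb2, a zinc finger protein of the spliceosome, had 51.1, 50.9 and 52.8 TPM in Ts1Cje libraries and 78.4, 84.0 and 85.8 TPM in wild-type libraries, a log2 fold change of -0.69 ± 0.07. Rpf1, a factor of large ribosomal subunit assembly, was at -0.73 ± 0.09, and Depdc1a at -0.73 ± 0.10. Tyw3, an enzyme of wybutosine synthesis in phenylalanine tRNA, was at -1.08 ± 0.19. The general transcription factor gene Gtf2b (TFIIB), the ATAC complex gene Zzz3 and the LIM adaptor gene Lmo4 were also called lower.

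Other splicing factors of the SR family were set beside Srsf11. Of 10 tested genes of SR splicing factors outside the interval, 4 were called lower and none higher, with a median log2 fold change of -0.16, against -0.66 for Srsf11. The 10 ran from -0.38 to 0.71.

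Folding, ubiquitin and organelle genes formed a second even group, with 6 of 6 called lower and a median of -0.67. Selenof, a selenoprotein of the endoplasmic reticulum, had 68.7, 62.2 and 65.3 TPM in Ts1Cje replicates 1, 2 and 3, against 86.0, 85.0 and 78.0 TPM in wild-type replicates 1, 2 and 3, and its log2 fold change of -0.35 ± 0.07 was the smallest of the 6. Sh3glb1 (endophilin B1, a membrane-bending protein linked to autophagy) was at -0.86 ± 0.09 and Usp33, a deubiquitinating enzyme, at -0.69 ± 0.07. Miga1, a mitochondrial outer membrane protein that promotes fusion, was at -0.59 ± 0.09. Lrrc40 was at -0.87 ± 0.10 and the HSP40 co-chaperone gene Dnajb4 at -0.66 ± 0.15. For all 6 the Ts1Cje libraries were below the wild-type libraries, an order that 26.4% of all tested genes had.

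**Figure D3:**
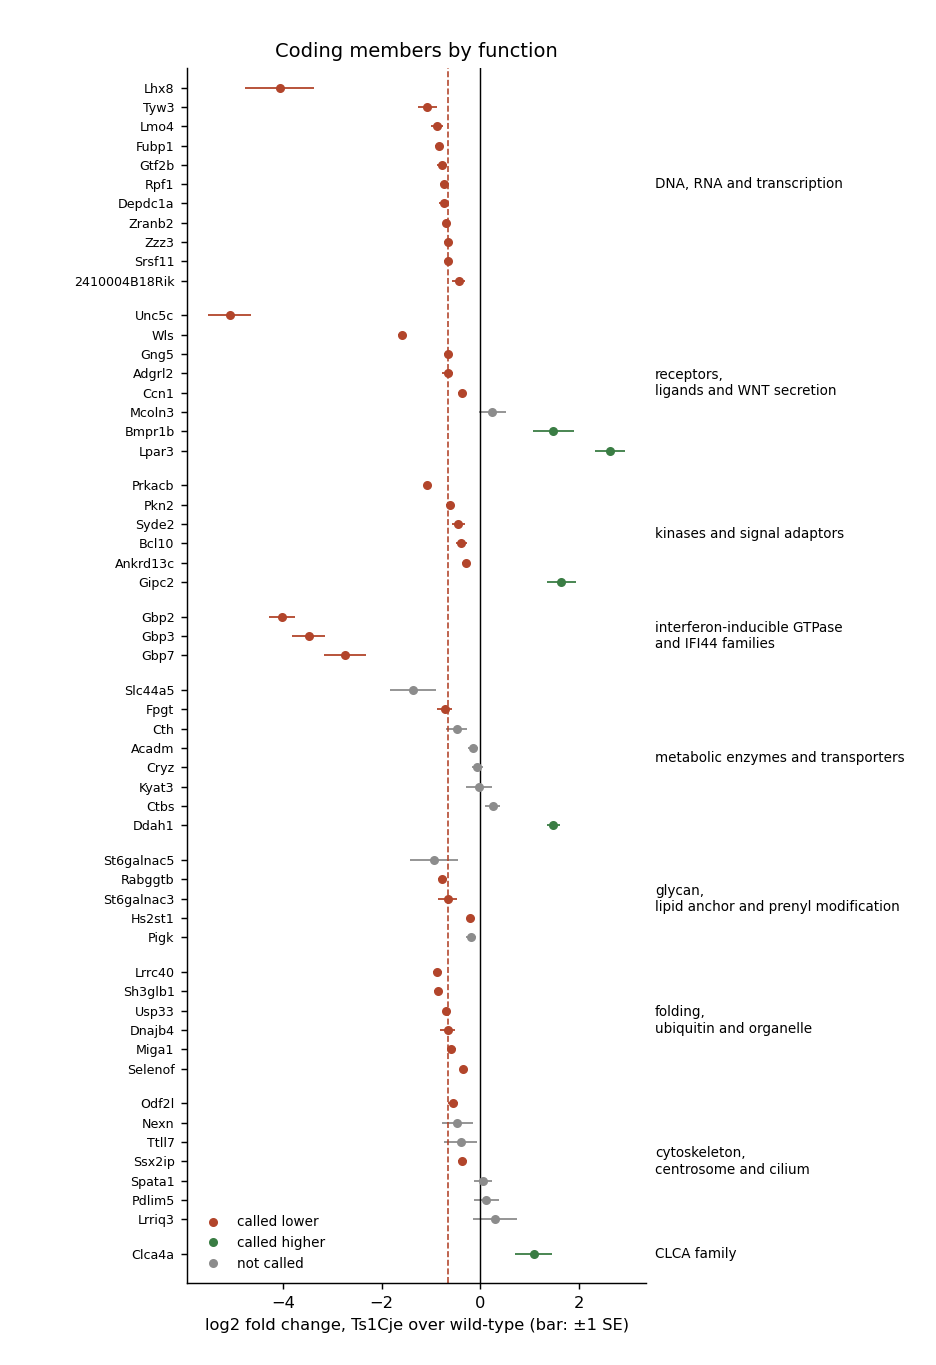
Log2 fold change of the protein-coding members of each functional list (horizontal axis, Ts1Cje over wild-type, bars ±1 SE), sorted within lists, with the median of the 80 tested members (-0.66) as a dashed line. The folding list and, apart from Lhx8, the DNA and RNA list lie close to the dashed line, while receptors and metabolic enzymes spread to both sides of 0.

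Kinases and signal adaptors gave 5 called lower and 1 called higher of 6, with a median of -0.42. Prkacb, a catalytic subunit of the cAMP-dependent protein kinase (PKA), had 15.5, 17.3 and 16.3 TPM in Ts1Cje replicates 1, 2 and 3, against 34.4, 35.3 and 33.9 TPM in wild-type replicates 1, 2 and 3. Its log2 fold change of -1.08 ± 0.07 was the lowest of the 6. Pkn2, a protein kinase, was at -0.62 ± 0.07. Syde2 (-0.45 ± 0.13), Bcl10 (-0.39 ± 0.11), an adaptor toward NF-kappa B, and Ankrd13c (-0.29 ± 0.08) had the smaller values. The count of lower calls was 2 without Ts1Cje replicate 2, and 3 without Ts1Cje replicate 3 or without wild-type replicate 2, since those small differences missed the threshold. Of the other PKA subunit genes, none of which lies in the interval, 3 of 5 were called lower and none higher, with a median of -0.37. Prkaca, the gene of the other catalytic subunit, was at -0.05 and was not called, and Prkar2b, of a regulatory subunit, was at -2.20.

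Receptors, ligands and the WNT secretion factor were the most divided. Of 8 tested, 5 were called lower and 2 higher, and the values ran from -5.08 to 2.63. Wls, which carries WNT proteins to the cell surface, had 26.1, 30.8 and 25.8 TPM in Ts1Cje replicates 1, 2 and 3, against 76.2, 84.7 and 85.3 TPM in wild-type replicates 1, 2 and 3, and was at 0.333 of the wild-type level. Unc5c, a netrin receptor, had 1.16, 2.58 and 0.910 TPM in Ts1Cje libraries and 39.8, 58.0 and 55.8 TPM in wild-type libraries. Both genes were far below the wild-type range, and both lie near an end of the interval. Ccn1, a secreted matrix protein and the most abundant protein-coding member, had 129, 110 and 126 TPM in Ts1Cje libraries and 164, 158 and 150 TPM in wild-type libraries, a log2 fold change of -0.37 ± 0.08. The G protein gamma subunit gene Gng5 was at -0.66 ± 0.07 and the latrophilin gene Adgrl2, an adhesion receptor, at -0.66 ± 0.11. Lpar3, a receptor for lysophosphatidic acid, went the other way. It had 9.51, 7.99 and 11.6 TPM in Ts1Cje libraries and 1.59, 0.990 and 2.09 TPM in wild-type libraries, a log2 fold change of 2.63 ± 0.30 and the highest of all members. Bmpr1b, a type I receptor for bone morphogenetic proteins (BMPs), was under 1.1 TPM in every library and higher in Ts1Cje cells at 1.48 ± 0.42. Its call was lost without Ts1Cje replicate 1 (1.35) or without wild-type replicate 2 (1.14). The endolysosomal channel gene Mcoln3 was not called (0.24 ± 0.27).

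BMP-4 was part of the medium of both sets of cells. Of the 6 other BMP receptor genes tested, 4 were called lower and 1 higher in Ts1Cje cells, with a median of -0.42, so Bmpr1b was not on the side of most of them.

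**Figure D4:**
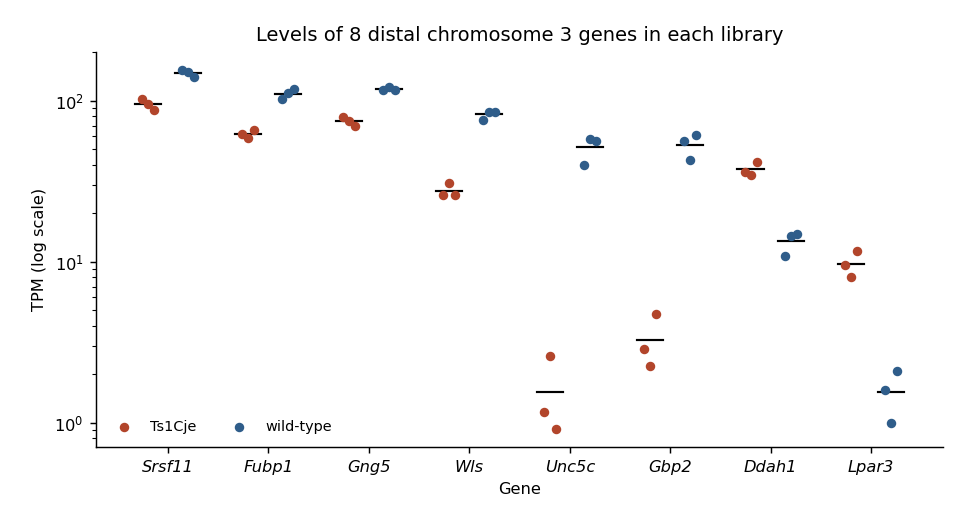
TPM on a log scale (vertical axis) of 8 distal chromosome 3 genes in the 3 Ts1Cje and the 3 wild-type libraries, points being libraries and lines means. Ts1Cje libraries lie below wild-type libraries for Srsf11, Fubp1, Gng5, Wls, Unc5c and Gbp2 and above them for Ddah1 and Lpar3.

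The interferon-inducible GTPases had the lowest levels relative to wild-type of any list. The list names 7 genes of the guanylate-binding protein and IFI44 families in the interval, of which 3 passed the count rule, and all 3 were called lower. Guanylate-binding proteins act in cell-autonomous defence against intracellular microbes. Gbp2 had 2.85, 2.25 and 4.71 TPM in Ts1Cje replicates 1, 2 and 3, against 55.8, 43.0 and 61.2 TPM in wild-type replicates 1, 2 and 3. Its log2 fold change was -4.02 ± 0.26, Gbp3 was at -3.48 ± 0.34 and Gbp7 at -2.75 ± 0.43. These 3 genes lie side by side, share sequence with each other, and the counting of reads that match several of them is not given in the sources used here, so the split of reads among them is uncertain. They sit among the first 10 members and lower the median of that stretch.

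Metabolic enzymes and transporters were mostly not called. Of 8 tested, 1 was called lower, 1 was called higher and 6 were not called, with a median of -0.10. Acadm, the medium-chain acyl-CoA dehydrogenase of mitochondrial fatty acid oxidation, had 37.2, 30.0 and 33.2 TPM in Ts1Cje replicates 1, 2 and 3, against 38.2, 35.1 and 37.7 TPM in wild-type replicates 1, 2 and 3. Cryz, a quinone reductase, had 13.6, 12.8 and 12.7 TPM in Ts1Cje libraries and 12.3, 13.7 and 14.4 TPM in wild-type libraries. In both genes the groups overlapped, with log2 fold changes of -0.15 ± 0.10 and -0.06 ± 0.11. Fpgt, which makes GDP-fucose from salvaged fucose, was the one called lower, at -0.72 ± 0.15. Ddah1, which breaks down the nitric oxide synthase inhibitor dimethylarginine, had 36.1, 34.4 and 41.7 TPM in Ts1Cje libraries and 10.9, 14.4 and 14.8 TPM in wild-type libraries. At 1.48 ± 0.14 it was the only one of the 43 abundant members called higher. Its call was made in every alternative that was run.

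Other genes of the same pathways were set beside Acadm and Cth. Of 17 fatty acid oxidation genes elsewhere in the genome, 10 were called higher in Ts1Cje cells and none lower, with a median of 0.48, against -0.15 for Acadm. Cth, the cystathionine gamma-lyase of cysteine synthesis, was at -0.48 ± 0.21 and was not called, though it was called lower with no filter on low counts (-0.49). In comparison, 4 of 10 transsulfuration and cysteine genes outside the interval were called higher and none lower, with a median of 0.23.

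Several of the genes that were not called stood apart in 1 wild-type library. Cth had 31.0 TPM in wild-type replicate 1 and 20.0 and 19.0 TPM in wild-type replicates 2 and 3, against 19.9, 16.8 and 13.4 TPM in Ts1Cje libraries. Slc44a5, of the choline-transporter-like family, had 16.5 TPM in wild-type replicate 1 and 7.28 and 5.43 TPM in wild-type replicates 2 and 3, against 3.00, 5.33 and 3.00 TPM in Ts1Cje libraries. Pdlim5, a PDZ and LIM domain protein of the actin cytoskeleton, had 34.5 TPM in wild-type replicate 1 and 19.4 and 17.6 TPM in the other wild-type libraries, against 24.6, 25.0 and 28.3 TPM in Ts1Cje libraries. Without wild-type replicate 1, Pdlim5 was called higher in Ts1Cje cells at 0.46 and Slc44a5 was called lower at -0.78, which made 2 metabolic genes called lower. Slc44a5 was also called lower without wild-type replicate 3, at -1.65. On all 6 libraries edgeR called neither gene, while DESeq2 (-1.37), limma-voom (-1.28) and limma-trend on log2(TPM + 0.1) (-1.23) called Slc44a5 lower. These 3 were chosen after their values were seen. In the same library the pluripotent and primed epiblast markers summed to 476 TPM, against 235 and 221 TPM in the other wild-type libraries, and the part this plays was not tested.

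Of 5 genes that modify glycans, lipid anchors or prenyl groups, 3 were called lower and none higher, with a median of -0.66. Rabggtb, a subunit of the enzyme that attaches geranylgeranyl groups to Rab proteins, had 76.1, 68.0 and 63.0 TPM in Ts1Cje replicates 1, 2 and 3, against 130, 113 and 109 TPM in wild-type replicates 1, 2 and 3, a log2 fold change of -0.77 ± 0.09. The sialyltransferase gene St6galnac3 was at -0.66 ± 0.19 and the heparan sulfate 2-O-sulfotransferase gene Hs2st1 at -0.21 ± 0.07. Pigk, of the complex that attaches GPI anchors, was at -0.19 ± 0.11 and was not called. Without Ts1Cje replicate 2 or without wild-type replicate 2 only Rabggtb was called, with St6galnac3 at -0.52 and -0.54 and Hs2st1 at -0.18 and -0.22. The call of Hs2st1 was lost whichever library was left out.

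Cytoskeletal, centrosomal and ciliary genes were called lower in 2 of 7 cases and higher in none, with a median of -0.37. Ssx2ip, a centrosomal protein, had 16.2, 17.1 and 17.5 TPM in Ts1Cje replicates 1, 2 and 3, against 21.7, 22.1 and 21.7 TPM in wild-type replicates 1, 2 and 3, a log2 fold change of -0.37 ± 0.09. Odf2l, another centrosomal protein, was at -0.56 ± 0.10. The actin-binding gene Nexn was at -0.47 ± 0.31, Pdlim5 at 0.12 ± 0.25 and Spata1 at 0.06 ± 0.18, and none of these was called. Without wild-type replicate 1, Pdlim5 was at 0.46 and called higher and Nexn at -0.74 and called lower.

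Among 8 CLCA genes of the interval only Clca4a passed the count rule. It had 3.96, 2.40 and 2.31 TPM in Ts1Cje replicates 1, 2 and 3, against 2.01, 1.10 and 0.973 TPM in wild-type replicates 1, 2 and 3, and was called higher at 1.08 ± 0.37. The call was lost without Ts1Cje replicate 1 (0.78), wild-type replicate 2 (0.95) or wild-type replicate 3 (0.90). Of the coding members in no list, the fibrillar collagen gene Col24a1 was at -3.39 ± 0.34, with 0.482, 0.307 and 0.178 TPM in Ts1Cje libraries and 3.87, 3.77 and 2.50 TPM in wild-type libraries. The other one, Znhit6, was at -0.94 ± 0.11 and was named after its value was seen, since the rule for named genes did not take it.

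The 7 members called higher were Lpar3, Gm16233, D630002J18Rik, Gipc2, Bmpr1b, Ddah1 and Clca4a. Only Ddah1 was abundant, and the other 6 had a mean under 10 TPM. Gipc2, a PDZ adaptor of receptor trafficking, had 3.51, 3.15 and 5.73 TPM in Ts1Cje replicates 1, 2 and 3, against 1.53, 1.18 and 1.25 TPM in wild-type replicates 1, 2 and 3, and its log2 fold change was 1.64 ± 0.30. D630002J18Rik overlaps the start of Gipc2 on the other strand and was at 1.85 ± 0.38. Gm16233 was at 1.87 ± 0.60, and its call was lost without Ts1Cje replicate 1 or 3 or without wild-type replicate 2 or 3, with values between 1.44 and 1.88. The 7 lay at 5 separate places of the interval. The count of members called higher was 4 without Ts1Cje replicate 1 and 4 without wild-type replicate 2.

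Members that are no protein-coding genes followed the same median, but their reads are harder to place. The most abundant rows of all were the processed pseudogenes Rpl36a-ps2 and Rpsa-ps10, with means of 263 and 242 TPM over 6 libraries. They were at -0.49 ± 0.11 and -0.57 ± 0.08, and reads of near-identical ribosomal protein genes elsewhere could be counted to them or lost from them. In all, 54 of the 81 members overlap another row of the table. The library kit keeps strand, but whether the counting used it is not given in the sources used here, so reads of a gene and its antisense partner cannot be told apart. Fubp1, Gng5, Sh3glb1, Rpf1 and Lpar3 overlap no other row.

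Small RNA rows lie inside or across larger members. Mature sequences are shown because a host gene and an miRNA on its own strand share a transcript, which applies to Mir186 and not to Mir6381. Mir6381 is shown because it had the lowest fold change of all members. The sequences are from RefSeq (GRCm38.p6), with the seed, bases 2 to 8, in capitals.
mmu-miR-186-5p, chr3:157544285-157544306, plus strand: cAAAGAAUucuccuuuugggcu
mmu-miR-186-3p, chr3:157544324-157544345, plus strand: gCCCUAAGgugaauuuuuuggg
mmu-miR-6381, chr3:142623925-142623945, minus strand: cAGGAUGCuggugacaugagu
No seed is shared among the 3. Mir186 lies in an intron of Zranb2 on the same strand, had 36 counts over the Ts1Cje libraries and 67 over the wild-type libraries, and was at -0.86, beside -0.69 for Zranb2. Mir6381 overlaps an exon of Gbp2 on the opposite strand, with 2 counts in Ts1Cje libraries and 140 in wild-type libraries. The ratio of wild-type over Ts1Cje was 67.9 for Mir6381 (95% exact interval 18.5 to 566, for counting error only), and Gbp2 stands at -4.02. Whether the counts of Mir6381 are reads of the Gbp2 exon cannot be told, since the strand used in counting is not given. Lhx8, a LIM homeobox gene named after its values were seen, had 3 counts in Ts1Cje libraries and 57 in wild-type libraries, a ratio of wild-type over Ts1Cje of 18.4 (6.0 to 92.0). Mir6381 and Lhx8 reached 10 counts in wild-type libraries only and had to differ, so their intervals support no test. In poly(A)-selected libraries, counts on the hairpins of Mir186 and Mir6381 do not measure the mature miRNAs.

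Neighbours that start back to back were compared because they can share promoter DNA. Some pairs overlap at their 5′ ends, so that each start lies inside the other gene. The interval held 11 pairs of members whose starts lie within 1 kb on opposite strands, 6 of them pairs of 2 coding genes. In 7 pairs both genes were called lower, in 1 both were called higher, and in 3 one was called lower and the other was not called. Over all tested genes 20.5% were called lower and 23.3% higher, and nothing is read from the difference. Gm15688, paired with Unc5c, reached 10 counts in wild-type libraries only and had to differ. D630002J18Rik, paired with Gipc2, did so in Ts1Cje libraries only. Lrrc40 is counted both with Srsf11 and with Gm43362, a row within Srsf11 on the same strand. The log2 fold changes differed by under 0.3 in 6 pairs and by over 0.5 in 5. Srsf11 and Lrrc40, whose starts are 23 bases apart, were at -0.66 ± 0.07 and -0.87 ± 0.10. Dnajb4 and Fubp1, 120 bases apart, were at -0.66 ± 0.15 and -0.84 ± 0.08. By contrast Spata1 was at 0.06 ± 0.18 and Gng5, 54 bases away, at -0.66 ± 0.07. Lrriq3 was at 0.29 ± 0.45 and Fpgt, 31 bases away, at -0.72 ± 0.15. Tyw3 and Cryz, whose annotated 5′ ends overlap by 394 bases, were at -1.08 ± 0.19 and -0.06 ± 0.11. In the 3 divided pairs the SE of Lrriq3, 0.45, was the largest, and no test of the differences within pairs was made. The lost calls of this set were those of non-coding partners: Gm43646 beside Pkn2, Gm17501 beside Ccn1 and Gm43362 beside Lrrc40 each missed the threshold in at least 4 of the 6 fits that left out a library, as did Hs2st1 in its pair with Selenof.

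**Figure D5:**
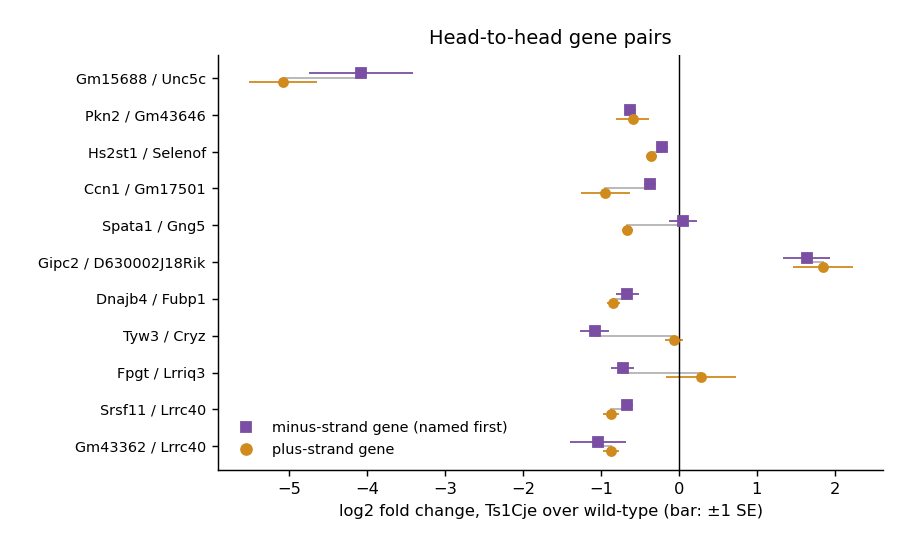
Log2 fold change (horizontal axis, Ts1Cje over wild-type, bars ±1 SE) of both genes of the 11 head-to-head pairs, the minus-strand gene as a square and the plus-strand gene as a circle. The pair Gipc2 and D630002J18Rik lies above 0 at both ends, and Tyw3 and Cryz are joined by one of the longest lines.

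The promoter windows of such pairs are printed because a single stretch of DNA can hold the starts of genes with like or with unlike values. They are from RefSeq (GRCm38.p6), 250 bases before to 50 bases after the RefSeq start of each gene, written in the direction of the gene. The starts named below are those of the count table's annotation, which lie 33 bases from the RefSeq start for Srsf11 and 29 for Gng5. Capitals mark matches, on either strand, to 6 motifs: the GC box (GGGCGG), the CCAAT box (CCAAT), the TATA box (TATAAA), an ETS core (CCGGAAG), an E box (CACGTG) and the core of a cAMP response element (TGACGT). The window of Srsf11 holds the start of Lrrc40 at base 195 and that of Srsf11 at base 218. The window of Gng5 holds the start of Spata1 at base 168 and that of Gng5 at base 222. Tyw3 and Cryz have a window each, and these windows share no base. Wls is shown as the abundant gene from Gtf2b on with the largest difference.
Srsf11, chr3:158036557-158036856, minus strand: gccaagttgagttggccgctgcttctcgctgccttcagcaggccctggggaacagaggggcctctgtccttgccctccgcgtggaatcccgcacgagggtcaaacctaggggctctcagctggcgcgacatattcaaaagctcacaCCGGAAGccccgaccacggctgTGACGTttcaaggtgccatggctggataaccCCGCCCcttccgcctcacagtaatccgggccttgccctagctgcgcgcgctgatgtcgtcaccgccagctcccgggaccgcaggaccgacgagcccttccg
Gng5, chr3:146499586-146499885, plus strand: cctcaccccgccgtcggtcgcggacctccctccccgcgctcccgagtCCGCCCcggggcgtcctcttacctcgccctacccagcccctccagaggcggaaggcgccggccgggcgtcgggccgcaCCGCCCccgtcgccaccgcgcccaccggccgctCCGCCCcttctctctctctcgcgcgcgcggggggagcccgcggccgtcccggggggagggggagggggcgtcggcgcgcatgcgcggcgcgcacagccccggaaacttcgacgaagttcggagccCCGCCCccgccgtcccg
Tyw3, chr3:154597049-154597348, minus strand: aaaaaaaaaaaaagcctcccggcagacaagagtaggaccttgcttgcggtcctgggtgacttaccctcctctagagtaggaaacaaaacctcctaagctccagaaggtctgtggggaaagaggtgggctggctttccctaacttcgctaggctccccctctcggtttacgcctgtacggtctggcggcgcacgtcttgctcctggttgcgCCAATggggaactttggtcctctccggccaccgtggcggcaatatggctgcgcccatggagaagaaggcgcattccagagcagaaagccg
Cryz, chr3:154596461-154596760, plus strand: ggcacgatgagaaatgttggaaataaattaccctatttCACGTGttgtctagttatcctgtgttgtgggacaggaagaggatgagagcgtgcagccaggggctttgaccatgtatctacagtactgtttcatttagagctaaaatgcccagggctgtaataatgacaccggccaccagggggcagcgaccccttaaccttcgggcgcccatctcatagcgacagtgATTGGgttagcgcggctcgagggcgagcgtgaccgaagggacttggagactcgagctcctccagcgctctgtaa
Wls, chr3:159839400-159839699, plus strand: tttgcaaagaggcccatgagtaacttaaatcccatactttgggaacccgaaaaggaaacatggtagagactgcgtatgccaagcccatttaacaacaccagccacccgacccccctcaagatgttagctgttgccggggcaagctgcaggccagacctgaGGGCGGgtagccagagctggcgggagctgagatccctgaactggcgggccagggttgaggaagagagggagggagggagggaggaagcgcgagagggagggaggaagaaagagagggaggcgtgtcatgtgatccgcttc
The Srsf11 window matched an ETS core, a cAMP response element core and a GC box once each, and that of Gng5 matched the GC box 4 times. The windows of Tyw3 and Cryz each matched a CCAAT box, on the strand of Tyw3 and on the strand opposite to Cryz, and Cryz also an E box. Wls matched the GC box once.

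Of the 81 members, 47 had a promoter window in the RefSeq table, and 36 of these windows start from a site within 100 bases of the annotated start. Those of Bmpr1b, Adgrl2 and Mcoln3 lie 187161, 35920 and 4341 bases away, at other starts. Over the 47 windows the median was 23.0 CpG dinucleotides and 63.7% GC, against 20.0 CpG and 60.7% GC over 14951 windows of tested genes, and 7.0 CpG and 52.7% GC over all 32851 windows. A GC box was found in 66.0% of the members' windows, 60.7% of those of tested genes and 35.7% of all windows. A CCAAT box was found in 31.9%, 37.3% and 37.4% in the same order, a TATA box in 10.6%, 7.23% and 13.6%, and an ETS core in 10.6%, 15.9% and 8.86%. An E box was found in 6.38%, 9.56% and 7.15%, and the cAMP response element core in 17.0%, 10.9% and 7.51%, which is 8 of the 47 windows. Windows of head-to-head neighbours, such as Srsf11 and Lrrc40 or Ccn1 and Gm17501, overlap, so a single match can be counted in both. Members are expressed genes by the count rule, so their likeness to windows of tested genes in CpG and GC content says nothing particular about the interval. Over the 36 near windows alone, 69.4% held a GC box, 27.8% a CCAAT box, 5.56% a TATA box, 11.1% an ETS core, 8.33% an E box and 11.1% the cAMP response element core. A match is a description of letters and not of a bound site.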

How the data were processed

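Poly(A)-selected, directional RNA libraries of 3 Ts1Cje and 3 wild-type samples were analysed. One table deposited by the authors holds raw counts for each Ensembl gene, and another holds TPM for these genes. The submitters' processing notes name HISAT2 2.1.0, featureCounts 1.6.3, Trimmomatic 0.38 and FastQC 0.11.7, and the genome mm10. Tool settings, the strand used in counting and what was done with multiply aligned reads are not stated there.

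Deposited counts were compared with edgeR 4.0.16 in R 4.3.3: filterByExpr (minimum count 10, total 15) kept 17315 of 55487 genes, with TMM scaling, a robust quasi-likelihood fit without covariates, and Benjamini-Hochberg adjustment over all kept genes. "Called" means an adjusted p below 0.05, and ± on a fold change is its SE. The fit was tested on simulated data. Library values are log2 CPM with a prior count of 2. Deposited TPM gives levels. Alternatives used limma 3.58.1, DESeq2 1.42.0, other scalings and filters, and fits without each library. Counts of replicates differed beyond sampling error, with chi-square values of 4.84 to 18.7 per degree of freedom.

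Lot numbers occur in both genotypes, but the labels do not say that they mark a shared day or batch, and the deviations of same-numbered samples correlated at 0.219, 0.059 and 0.202, so they were not taken as pairs. The interval, members and gene lists were chosen with earlier results of these data known. Named members are the 8 lowest and 8 highest by fold change with at least 1 TPM, the 8 most abundant, the genes at the interval's ends, head-to-head pairs, and in each list members of at least 1 TPM, with values for the 5 most abundant. Member coordinates equalled those of GENCODE M21.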

Additional observations from a re-analysis of the deposited data

How the results depend on the processing

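The direction of the median and of every called named member held in all 15 alternatives that gave a value, while 3 uncalled members near 0 (Pdlim5, Cryz and Lrriq3) changed sign when a library was left out. The median log2 fold change of the members was -0.56 with limma-trend on log2(TPM + 1), a scale that understates low genes, and -0.71 to -0.61 when a library was left out. The shift of Ts1Cje replicate 3 was -0.55 on log2(TPM + 1). Members called higher numbered 4 with a minimum mean log2 CPM of 1, under which only 61 members were tested. They numbered 4 to 8 when a library was left out, with 4 without Ts1Cje replicate 1 or without wild-type replicate 2. In both of these fits the calls of Clca4a, Gm16233 and Bmpr1b were lost, and why they were lost was not tested. Members called lower numbered 38 to 49 with a library left out, and 38 of the 49 were still called lower without Ts1Cje replicate 2 or without wild-type replicate 2. DESeq2 called 45 of the 49. Keeping only the 63 members with 10 or more counts in every library, chosen after seeing the data, gave a median of -0.62. With lot number as a replicate block, 52 members were called lower and 7 higher and the median was -0.66, with 3965 genes lower and 4361 higher over the whole table; the block called Cth lower (-0.48), which the fit without it did not; every sample correlated best with its own number, a hint from the data and not the design. With 3 libraries per group, differences as small as that of Hs2st1 sit at the edge of what can be called. Members under 10 TPM or with few counts are the least precise.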
